A study of Mus musculus with 5 samples.

Results

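The genes described here are the secreted Wnt ligands, their Frizzled receptors and Lrp co-receptors, the secreted antagonists of the Sfrp and Dkk families, the ligand-processing enzyme Porcn, and Axin2, Lef1 and Tcf7, followed through cardiac differentiation of mouse stem cells. They were taken by name: every probe whose gene name was Wnt, Fzd, Sfrp or Dkk followed by a number, together with Axin2, Lef1, Tcf7, Lrp5, Lrp6, Frzb and Porcn. The rule used no measured value. It gave 49 probes of 43 genes, of 28845 gene probes on the array, which carry 14435 named genes. Of these probes 21 were for 19 Wnt ligands, 2 for Porcn, 14 for 11 receptors and co-receptors, 9 for 9 antagonists and 3 for Axin2, Lef1 and Tcf7. 37 genes had 1 probe, and Fzd1, Fzd2, Fzd5, Porcn, Wnt10b and Wnt2b had 2 each.

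RNA came from 4 populations of mouse cells, from day 0 onwards, of a differentiation through embryoid bodies. These are aggregates of stem cells in which heart development can be followed in culture. The Rex1 population, marked by the product of Zfp42, held undifferentiated stem cells of day 0. The Bra population, marked by the product of T, was early mesoderm of day 4.5, and the Flk1 population, marked by the product of Kdr, was cardiac mesoderm of the same day 4.5. The Nkx2.5 population, marked by the product of Nkx2-5, held cardiac progenitors of day 7.5. No treatment or mutation is named for any population, and the sources used here do not name the strain, the stem cell line or the way positive cells were isolated. Pairs of populations were hybridised on 5 2-colour arrays: Bra with Rex1, Flk1 with Rex1, Nkx2.5 with Rex1, Nkx2.5 with Bra, and Nkx2.5 with Flk1.

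Wnt proteins are lipid-modified by Porcn and secreted. They bind a Frizzled receptor together with Lrp5 or Lrp6, which stops the destruction complex that degrades beta-catenin, and beta-catenin then enters the nucleus and activates genes with TCF and LEF factors. Sfrp proteins and Frzb bind Wnts outside the cell, and Dkk1 binds the Lrp co-receptors. In the mouse embryo Wnt3 is needed for the primitive streak and mesoderm to form, and canonical Wnt signalling, which favours mesoderm at first, opposes the specification of heart progenitors afterwards. Axin2, a scaffold of the destruction complex, is itself a target of beta-catenin and is widely used as a reporter of the pathway.

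Axin2, Dkk1 and Lef1 were among the 4 genes of the set that were higher than in Rex1 cells in some later population. Their promoters are shown because TCF and LEF factors, to which beta-catenin binds, recognise a short core sequence. The windows are from RefSeq, assembly GRCm38.p6, and run from 250 bases before to 50 bases after the annotated start, so each has 300 bases. They lie at chr11:108920099-108920398 on the plus strand (Axin2), chr19:30549447-30549746 on the minus strand (Dkk1) and chr3:131110047-131110346 on the plus strand (the most upstream of 4 Lef1 starts in the table). Capitals mark CTTTGAT or CTTTGTT, searched on both strands (the reverse complements are ATCAAAG and AACAAAG).
Axin2: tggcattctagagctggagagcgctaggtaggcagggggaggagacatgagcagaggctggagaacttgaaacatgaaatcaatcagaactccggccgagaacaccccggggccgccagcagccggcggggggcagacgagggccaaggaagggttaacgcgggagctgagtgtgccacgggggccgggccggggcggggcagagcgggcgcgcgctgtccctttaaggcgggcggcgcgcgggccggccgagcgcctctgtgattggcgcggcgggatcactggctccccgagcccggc
Dkk1: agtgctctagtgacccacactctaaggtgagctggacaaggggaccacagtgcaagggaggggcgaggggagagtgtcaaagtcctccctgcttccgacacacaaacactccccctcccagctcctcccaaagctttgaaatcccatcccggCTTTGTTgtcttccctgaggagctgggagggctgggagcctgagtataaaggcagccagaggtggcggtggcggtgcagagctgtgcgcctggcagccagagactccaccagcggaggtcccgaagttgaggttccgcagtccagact
Lef1: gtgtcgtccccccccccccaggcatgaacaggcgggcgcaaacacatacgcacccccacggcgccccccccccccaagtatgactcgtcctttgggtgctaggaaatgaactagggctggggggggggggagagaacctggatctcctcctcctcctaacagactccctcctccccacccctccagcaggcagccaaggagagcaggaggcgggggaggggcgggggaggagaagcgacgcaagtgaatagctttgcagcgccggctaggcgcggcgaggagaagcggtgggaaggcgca
Dkk1 held CTTTGTT beginning 98 bases before its start, and neither motif was in the windows of Axin2 or Lef1, which says nothing of sites elsewhere in those genes. The table had promoters for 28 of the 43 genes, 35 windows in all. Of these 5, or 14.3%, held a motif, against 9.33% of all 32851 promoters in the table. The other windows with a motif were 1 each of Fzd7, Wnt11, Wnt3 and Wnt5b. The windows of the set were rich in G and C, with a median of 66.7% GC and 24 CpG pairs, against 52.7% and 7 over all promoters. The GC content was 70.0% for Axin2, 67.3% for Lef1 and 60.7% for Dkk1.

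Each pair had a single array, without a replicate. No value therefore has a spread between samples, populations could not be tested against each other, and the number of arrays limits the precision. Rex1 RNA was in Cy3 on its 3 arrays and Nkx2.5 RNA in Cy5 on its 3 arrays, and the dyes were not exchanged. Since the arrays link the populations in triangles, a comparison can be read along more than 1 route. The first reading is the log2 ratio on the array with both populations, and the second is worked out from the other arrays of that triangle. Flk1 and Bra were never on the same array, and there the first reading runs through Rex1 and the second through Nkx2.5. A dye effect that is the same for a probe on every array cancels in the second readings of Bra and Flk1 over Rex1, but not in the first. It cancels in neither reading of Nkx2.5 over Rex1, and it enters the second of these more strongly than the first. A dye effect that varied between arrays was not tested. A probe was called higher or lower where both readings reached 1 in size with the same sign, a fold of 2, and the brighter population was well above background, meaning above percentile 95 of the 96 negative control spots, on at least 1 of its arrays. Without a dye effect the sum around a triangle should be 0, whereas a dye effect that is the same on every array stays in it. Over all probes the sum had an SD of 0.396 for the triangle of Bra and 0.448 for that of Flk1. With equal and independent errors and no dye effect this corresponds to 0.245 on the log2 scale for 1 array. In Cy3, between 77.6% and 84.4% of all probes were well above background on the arrays with Rex1, and 90.2% and 91.5% on the arrays with Bra and Flk1 in Cy3. In Cy5 the share was 92.2% to 95.2%. That threshold comes from negative controls and does not mean a strong signal. On the arrays with Rex1 the median net signal, after background subtraction, was only 0.302 to 0.340 of the background in Cy3. In Cy5 on the same arrays it was 0.932 to 1.18. In Rex1, 92.2% to 93.7% of all spots had a net signal smaller than the background subtracted. The sort markers followed their labels only in part. Zfp42 was lower in Bra, Flk1 and Nkx2.5 than in Rex1, at -1.74, -1.76 and -1.68 in the first readings. T read 1.07 in Bra over Rex1, Kdr 0.68 in Flk1 over Rex1 and Nkx2-5 0.53 in Nkx2.5 over Rex1, none of them called.

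Across the 5 arrays a few genes stood out, and most of the set was flat, as were most of all probes. Axin2 was higher in Bra, Flk1 and Nkx2.5 cells than in Rex1 cells. Fzd8, a Frizzled receptor gene, and Dkk1 were higher in Nkx2.5 than in Rex1, and Lef1 was higher in Bra than in Rex1. No gene of the set was called lower than in Rex1, and none was called between the later populations. In Bra over Rex1, 2 of 49 probes were higher, or 4.08%, against 1.27% of all probes. In Flk1 over Rex1, 1 probe was higher, or 2.04%, against 0.749% of all probes. In Nkx2.5 over Rex1, 3 were higher, or 6.12%, against 2.75%. Of all probes 0.253%, 0.295% and 0.749% were lower in these comparisons, in the same order, against 0 of 49 in the set in each. With 49 probes, each of these counts rests on 1 to 3 genes.

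**Figure D1:**
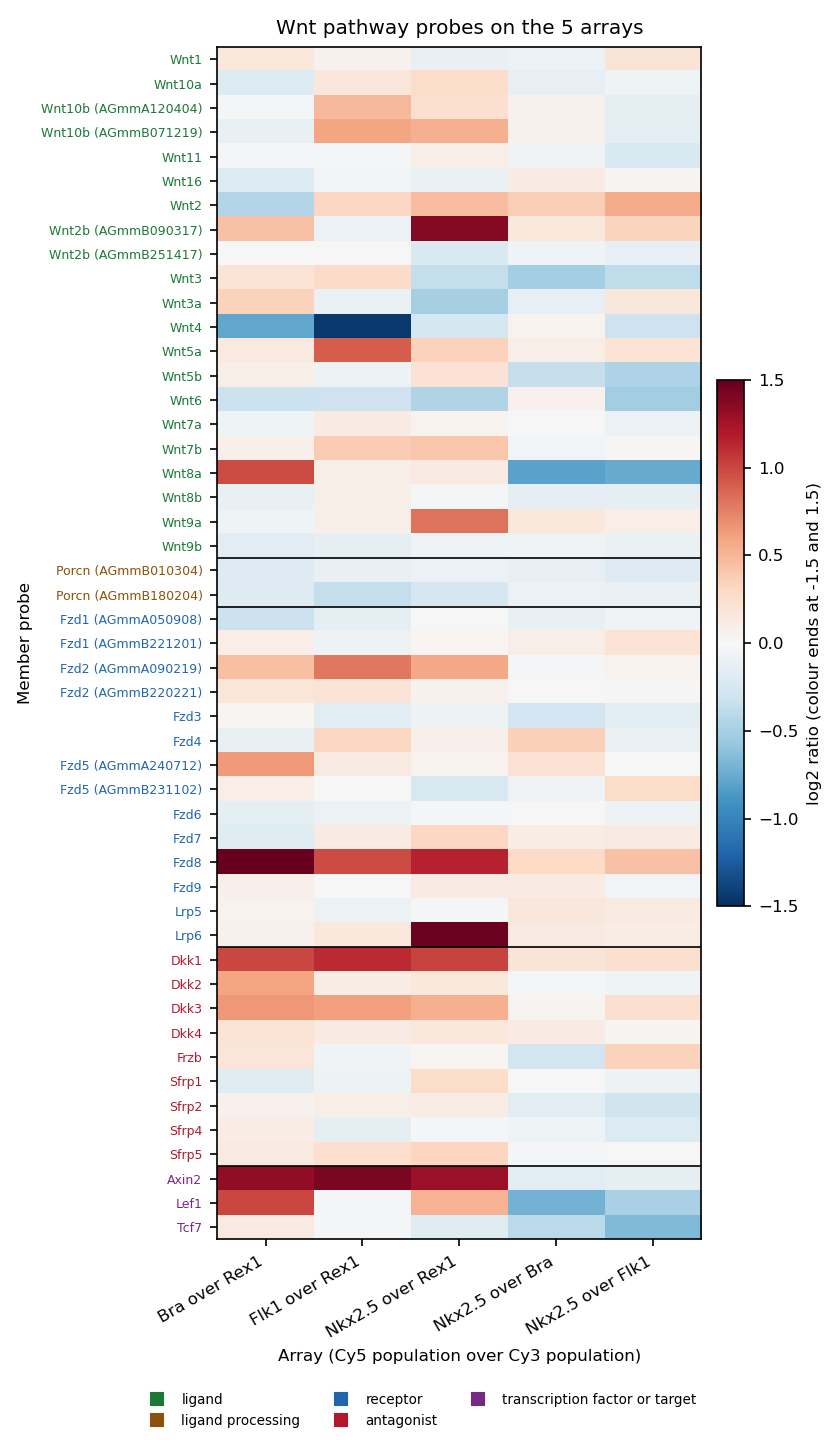
Log2 ratio of each of the 49 probes (rows, grouped by role) on each of the 5 arrays (columns, Cy5 population over Cy3 population), with colour from -1.5 to 1.5. Axin2, Dkk1 and Fzd8 are red in all 3 columns over Rex1, Wnt8a is red in Bra over Rex1 and blue in both columns over the mesoderm populations, and most rows are pale.

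The range of a probe over the 4 populations, from a least-squares fit of all 5 arrays, shows that the set was about as flat as all probes. The median range was 0.31 on the log2 scale, against 0.33 over all probes, with a lowest value of 0.10 for Fzd9 and a highest of 1.40 for Axin2. In 35 of 49 probes, or 71.4%, the range was below 0.5, against 73.5% of all probes. It was at least 1 in 3 probes, those of Axin2, Fzd8 and Dkk1, or 6.12%, against 6.32% of all probes. By role, the median range was 0.37 for ligands, 0.25 for Porcn, 0.23 for receptors, 0.26 for antagonists and 0.96 for the 3 probes of Axin2, Lef1 and Tcf7. The SD of the set's log2 ratios was 0.442, 0.432 and 0.452 on the arrays of Bra, Flk1 and Nkx2.5 with Rex1, against 0.427, 0.441 and 0.481 over all probes. It was 0.232 on the array of Nkx2.5 with Bra and 0.267 on that of Nkx2.5 with Flk1, against 0.237 and 0.325. Of the set 40 of 49 probes, or 81.6%, were well above background in all 10 channels, against 73.2% of all probes. Passing that threshold does not make a ratio over Rex1 firm, given the low net signals in Rex1.

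**Figure D2:**
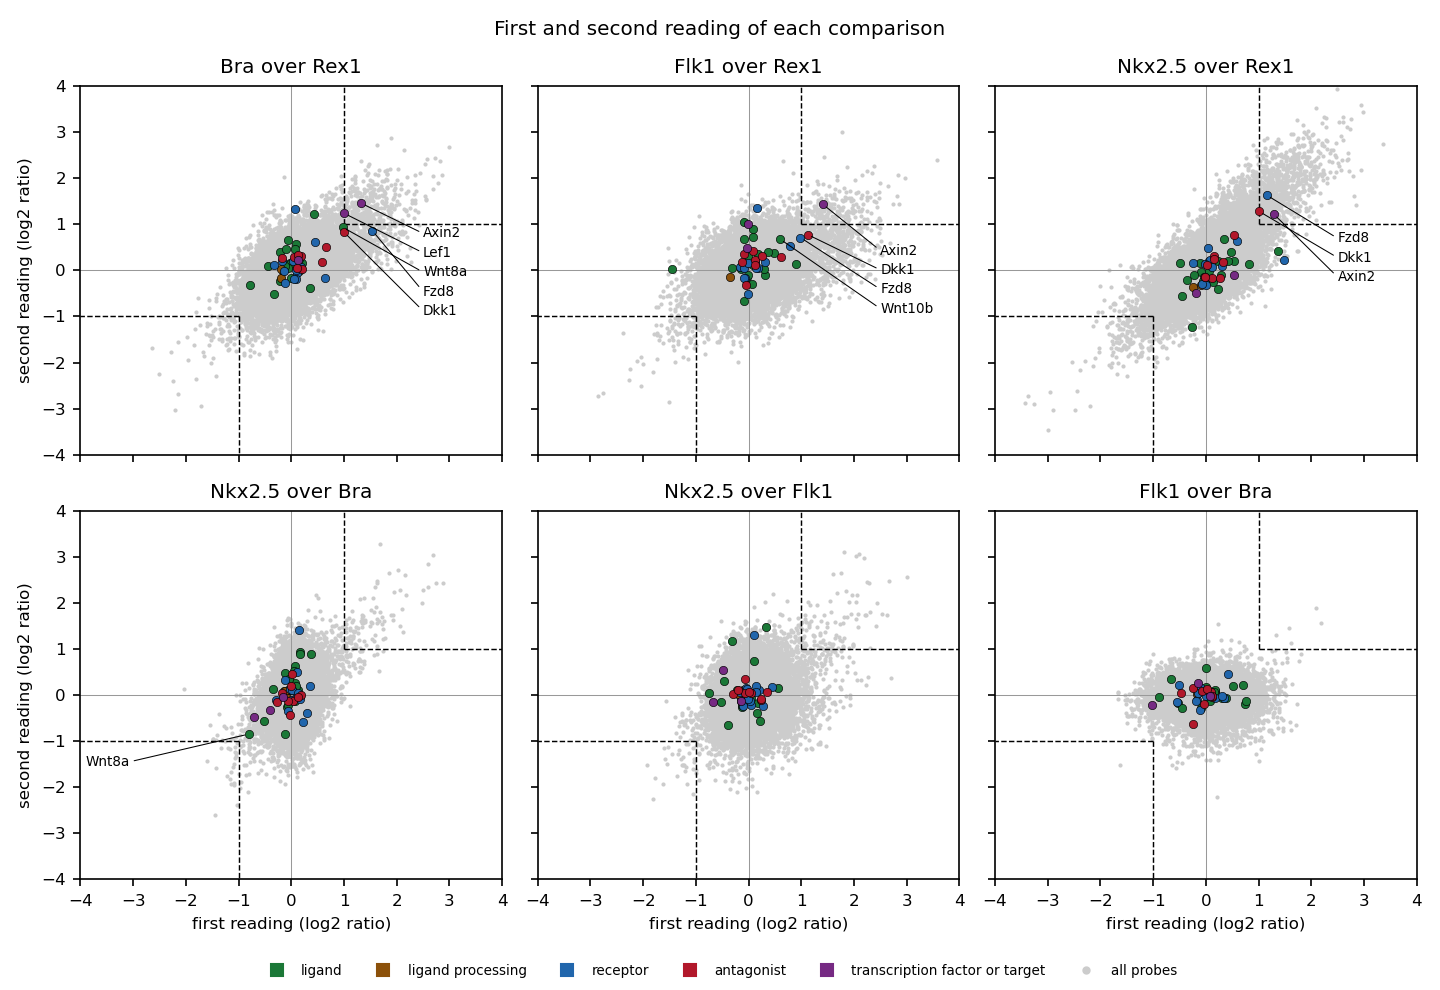
First reading (x axis) against second reading (y axis) of the log2 ratio in each of the 6 comparisons, for all 28845 probes in grey and the 49 probes in the colour of their role. Dashed lines bound the region where both readings reach 1 in size. Names mark probes whose readings both reached 1.5-fold with the same sign, and the only named points inside the region are Axin2 and Lef1 in Bra over Rex1, Axin2 in Flk1 over Rex1, and Axin2, Fzd8 and Dkk1 in Nkx2.5 over Rex1.

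The ligands come first in the pathway, and no ligand probe was called in any of the 6 comparisons. Their first readings ran between -0.78 for Wnt4 and 0.97 for Wnt8a in Bra over Rex1, between -1.45 for Wnt4 and 0.90 for Wnt5a in Flk1 over Rex1, and between -0.49 for Wnt3a and 1.38 for Wnt2b in Nkx2.5 over Rex1. Over the mesoderm populations they were narrower, between -0.81 for Wnt8a and 0.37 for Wnt2 in Nkx2.5 over Bra and between -0.76 for Wnt8a and 0.56 for Wnt2 in Nkx2.5 over Flk1. The median ligand probe lay at -0.03, 0.09 and 0.08 in the first readings over Rex1, in the order Bra, Flk1 and Nkx2.5, against 0.00, 0.00 and 0.01 over all probes. The readings of a ligand had the same sign in 11 of 21 probes in Bra over Rex1, 13 in Flk1 over Rex1 and 14 in Nkx2.5 over Rex1.

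Wnt8a, a ligand gene known from the primitive streak of the mouse embryo, was the ligand that came nearest to a call. On the Bra array its net signal was 5311 in Bra against 2010 in Rex1, a log2 ratio of 0.97 with a second reading of 0.94. On the Flk1 array the signal was 3129 in Flk1 against 2487 in Rex1, at 0.09, and on the Nkx2.5 array 3367 in Nkx2.5 against 2389 in Rex1, at 0.13. Net signals are given for each channel before normalisation, so a ratio of signals is not the normalised ratio. All 10 channels were well above background.

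In Nkx2.5 over Bra, Wnt8a read -0.81 and -0.84, the lowest of the set, from signals of 5786 in Nkx2.5 and 8928 in Bra. At a looser threshold of 1.5-fold in both readings it was the only probe of the set called lower there, against 0.478% of all probes, and it was among 5 probes higher in Bra over Rex1, against 3.59% of all probes. By that looser rule 4 probes were higher in Flk1 over Rex1, against 2.78% of all probes, and 3 in Nkx2.5 over Rex1, against 6.29%. The readings for Flk1 parted: Flk1 over Rex1 read 0.09 directly and 0.89 through Nkx2.5, and Nkx2.5 over Flk1 read -0.76 and 0.04. Flk1 over Bra read -0.89 and -0.05. The level in Bra cells was thus the highest of the 4 in each reading, while the place of Flk1 depended on which arrays were used. The least-squares levels relative to Rex1 were 0.86 in Bra, 0.39 in Flk1 and -0.06 in Nkx2.5.

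Wnt3, the ligand gene needed for the mouse primitive streak, read 0.20 and 0.15 in Bra over Rex1 and 0.29 and 0.02 in Flk1 over Rex1. It was among the lowest of the set in Nkx2.5 over Bra, at -0.51 and -0.57, and in Nkx2.5 over Flk1, at -0.38 and -0.65, with signals well above background in every channel. None of these reached a fold of 1.5 in both readings. Wnt3a, a ligand gene of the streak and tail bud, had readings of opposite sign in Bra over Rex1, at 0.35 and -0.37, and read -0.09 and -0.66 in Flk1 over Rex1, -0.12 and -0.84 in Nkx2.5 over Bra, and -0.44 and -0.29 in Flk1 over Bra.

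Of the ligands known for acting outside the beta-catenin branch, Wnt5a read 0.90 directly and 0.14 in the second reading of Flk1 over Rex1, and 0.34 and 0.67 in Nkx2.5 over Rex1. Wnt11, which is known for a role in heart development, lay between -0.23 and 0.08 on all 5 arrays, with a range over populations of 0.12. Wnt5b read 0.08 and 0.56 in Bra over Rex1 and -0.46 and 0.30 in Nkx2.5 over Flk1, so its readings did not share a sign there.

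By the smaller reading, Wnt6 and Wnt4 were the lowest ligands in Bra over Rex1 and in Nkx2.5 over Rex1, and Wnt3a was the lowest in Flk1 over Rex1. Wnt4 read -0.78 and -0.32 in Bra over Rex1 and -0.27 and -1.24 in Nkx2.5 over Rex1. In Flk1 over Rex1 Wnt4 had signals of 1468 in Flk1 and 2698.5 in Rex1, a first reading of -1.45, but a second reading of 0.04, and the triangle failed to close by 1.48 in size. Wnt6 read -0.33 and -0.52 in Bra over Rex1 and -0.46 and -0.55 in Nkx2.5 over Rex1, the lowest of the set in both by the smaller reading. In Flk1 over Rex1 it read -0.32 and 0.06, which differ in sign, and in Nkx2.5 over Flk1 -0.52 and -0.14.

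Wnt2 and Wnt2b are a pair of paralogous ligand genes. Wnt2, known from the developing heart and lung, was not well above background on any array of Rex1 or Bra, was so on 1 of 2 arrays of Flk1, and was above background on 3 of 3 arrays of Nkx2.5. Its signal was 2317 in Nkx2.5 against 1351 in Bra, a log2 ratio of 0.37 with a second reading of 0.90, the highest of the set in Nkx2.5 over Bra by the smaller reading. With Bra below background, the bound on this comparison was at least 1.20-fold. In Nkx2.5 over Flk1 it read 0.56 and 0.15. The 2 probes of Wnt2b disagreed: in Nkx2.5 over Rex1 the dimmer read 1.38 and the brighter -0.22, a difference of 1.60. The second reading of the dimmer probe was 0.42, and on that array its Rex1 signal of 1079 was 0.879 of the background threshold. In Nkx2.5 over Flk1 the dimmer probe read 0.33 and 1.47. Among the remaining ligands, the 2 probes of Wnt10b read 0.49 and 0.60 on the array of Flk1 with Rex1, and 0.37 and 0.68 in the second reading. In Flk1 over Bra they read 0.52 and 0.71 in the first reading and 0.20 and 0.22 in the second. Wnt9a read 0.82 and 0.14 in Nkx2.5 over Rex1 and 0.16 and 0.89 in Nkx2.5 over Bra. Wnt16 read -0.21 and -0.22 in Bra over Rex1. Wnt1, Wnt7a, Wnt8b, Wnt9b and Wnt16 had ranges over populations between 0.14 and 0.20.

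Porcn, the acyltransferase gene without which Wnts are not secreted, read below 0 with both probes on all 5 arrays, between -0.36 and -0.09. The largest range over populations of its probes was 0.31, and the 2 probes differed by at most 0.24 on any array. One of them was among the lowest of the set in Flk1 over Rex1, at -0.36 and -0.14, and in Nkx2.5 over Rex1, at -0.25 and -0.37. The other, brighter probe had second readings of 0.03 in Bra over Rex1 and 0.10 in Flk1 over Rex1, opposite in sign to its first. First and second readings shared a sign in both probes in Nkx2.5 over Rex1, in 0 in Nkx2.5 over Flk1, and in 1 probe in each other comparison.

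Among the receptors, Fzd8 was the only gene called, with 1 of 14 probes higher in Nkx2.5 over Rex1. Fzd8 lies on mouse chromosome 18 and encodes a Frizzled receptor. On the Nkx2.5 array its signal was 6107 in Nkx2.5 against 2337.5 in Rex1, with a first reading of 1.16 and a second of 1.63. The route through Bra gave 1.83 and that through Flk1 1.43. On the Bra array the signal was 7085.5 in Bra against 1963 in Rex1, with readings of 1.54 and 0.86, and on the Flk1 array 5490 in Flk1 against 2569.5 in Rex1, with readings of 0.98 and 0.71. The 3 later populations were thus above Rex1 in every reading, and Rex1 itself was well above background on 3 of 3 arrays, so the folds are not bounds. A constant dye effect cancels in the second readings of Bra and Flk1 over Rex1, 0.86 and 0.71. It cancels in neither reading of Nkx2.5 over Rex1, where Fzd8 was called, and it enters the larger second reading of 1.63 more strongly than the first. Its part was not tested.

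The later populations lay closer together. Fzd8 read 0.30 and -0.38 in Nkx2.5 over Bra, which differ in sign, and 0.44 and 0.17 in Nkx2.5 over Flk1. The least-squares levels relative to Rex1 were 1.32 in Bra, 0.97 in Flk1 and 1.39 in Nkx2.5. The levels of Bra and Nkx2.5 were less than the 0.245 error of 1 array apart. At 1.5-fold in both readings Fzd8 was also called in Bra over Rex1 and in Flk1 over Rex1. Without background subtraction its readings in Nkx2.5 over Rex1 were 0.19 and 0.13, and only 2 of all 28845 probes were called higher there.

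The other Frizzled genes varied little. One probe of Fzd2 read 0.46, 0.79 and 0.58 in the first readings over Rex1 for Bra, Flk1 and Nkx2.5 and 0.61, 0.54 and 0.64 in the second. The other Fzd2 probe, of similar brightness, read 0.18, 0.19 and 0.07 on the same arrays, and the probes differed by up to 0.60. Fzd5 read 0.64 in Bra over Rex1 with one probe and 0.10 with the other. Fzd4, a receptor gene of blood vessels, was the highest of the set in Flk1 over Bra by the smaller reading, at 0.43 and 0.46, with Bra above background on 1 of 2 arrays, and read 0.36 and 0.19 in Nkx2.5 over Bra. Fzd6, Fzd9 and Fzd3 had ranges over populations of 0.11, 0.10 and 0.25, and the 2 probes of Fzd1 had 0.18 and 0.19. Fzd7, a receptor gene abundant in stem cells, read 0.31 and 0.09 in Nkx2.5 over Rex1 and had a range of 0.25.

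The co-receptor genes Lrp5 and Lrp6 differed in how far their readings could be used. Lrp5 lay between -0.08 and 0.17 on all 5 arrays, with a range of 0.14, and read -0.08 and -0.16 in Flk1 over Rex1. Lrp6 read 0.06 in Bra over Rex1, 0.16 in Flk1 over Rex1 and 1.47 in Nkx2.5 over Rex1, and then 0.14 in Nkx2.5 over Bra and 0.11 in Nkx2.5 over Flk1. Its triangles failed to close, with gaps of -1.27 through Bra and -1.20 through Flk1. Its signal in Rex1 was 5005.5 on the Bra array and 6983 on the Flk1 array, but 2137 on the Nkx2.5 array, the array whose ratio stood apart. The array's own ratio of 1.47 was the highest first reading of the set in Nkx2.5 over Rex1, against a second reading of 0.24, and Lrp6 was not called. In all, 4 of 49 probes had a triangle gap of 1 or more in size, those of Lef1, Lrp6, Wnt2b and Wnt4, or 8.16%, against 5.96% of all probes.

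**Figure D3:**
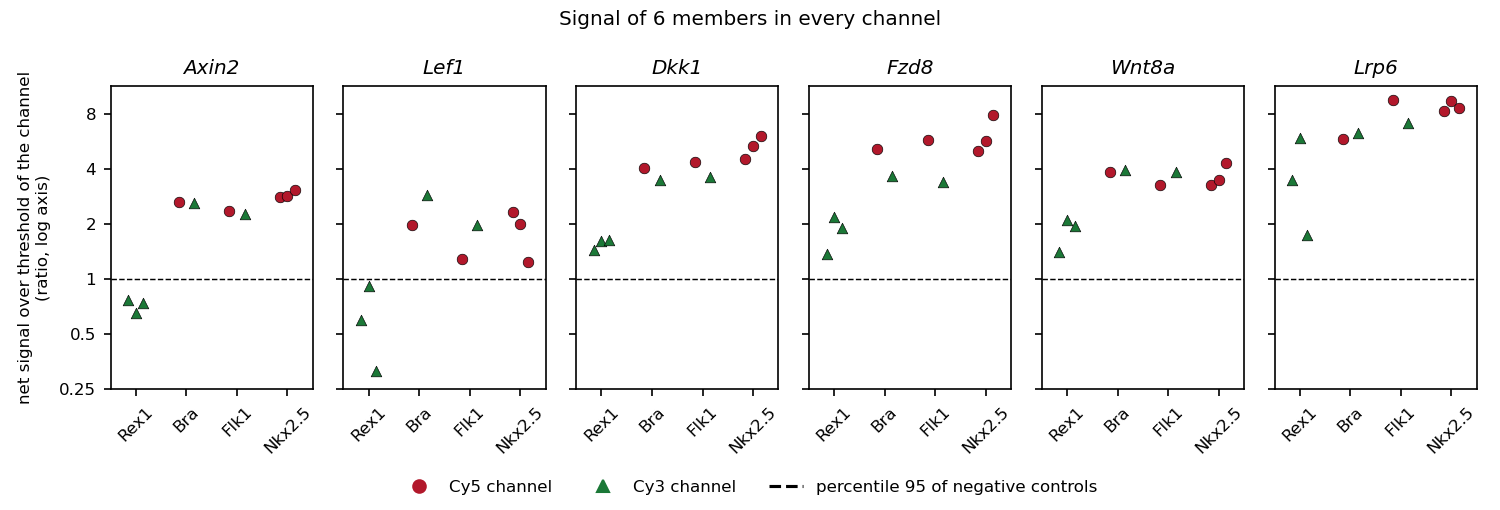
Net signal of Axin2, Lef1, Dkk1, Fzd8, Wnt8a and Lrp6 in every channel, divided by the background threshold of that channel (percentile 95 of the negative controls, dashed line at 1), on a log axis, by population in day order, with circles for Cy5 and triangles for Cy3. The 3 Rex1 points of Axin2 lie between 0.653 and 0.773, below the line, and those of its later populations between 2.29 and 3.07. The 3 Rex1 points of Lrp6 are spread between 1.74 and 5.92.

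The antagonists were led by Dkk1. The gene lies on mouse chromosome 19, and its secreted product blocks Lrp5 and Lrp6. On the Nkx2.5 array the signal was 4734.5 in Nkx2.5 against 2027 in Rex1, with readings of 1.01 and 1.28, the only antagonist call of the set. On the Bra array it was 5561.5 in Bra against 2061.5 in Rex1, with readings of 1.01 and 0.82. On the Flk1 array it was 4175 in Flk1 against 1910.5 in Rex1, with readings of 1.12 and 0.78.

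All first readings of Dkk1 over Rex1 therefore reached 1, and the calls in Bra and Flk1 were missed in the second reading only. Those second readings, 0.82 and 0.78, are the ones in which a constant dye effect cancels. Such an effect cancels in neither reading of Nkx2.5 over Rex1, where Dkk1 was called, and it enters the larger second reading of 1.28 more strongly than the first. Its part was not tested. The first reading in Nkx2.5 over Rex1 lay just past the threshold, by less than the 0.245 error of 1 array. The least-squares levels relative to Rex1 were 0.98 in Bra, 1.02 in Flk1 and 1.15 in Nkx2.5, which lie within the error of 1 array of each other. Between the later populations Dkk1 read 0.19 and 0.01 in Nkx2.5 over Bra, 0.24 and -0.11 in Nkx2.5 over Flk1, and 0.12 and -0.05 in Flk1 over Bra. All 10 channels were well above background. Without background subtraction the readings in Nkx2.5 over Rex1 were 0.05 and -0.0088, so the size of the difference rests on that step. This was not particular to Dkk1, since only 2 of all 28845 probes were then called higher there.

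Dkk3, a divergent member of the Dkk family, read 0.66 and 0.50 in Bra over Rex1, 0.62 and 0.30 in Flk1 over Rex1, and 0.54 and 0.78 in Nkx2.5 over Rex1, all above 0 and none called. Dkk2 read 0.59 in the first and 0.19 in the second reading of Bra over Rex1, and Dkk4 stayed between 0.04 and 0.21 on all 5 arrays. The Wnt-binding antagonists Sfrp1, Sfrp2, Sfrp4 and Sfrp5 had ranges over populations between 0.12 and 0.26. Sfrp1 read 0.27 and -0.16 in Nkx2.5 over Rex1. Frzb, another Wnt-binding antagonist, read -0.24 and -0.62 in Flk1 over Bra, and 0.35 and 0.08 in Nkx2.5 over Flk1. As a group the 9 antagonist probes had medians of 0.19, 0.11 and 0.16 in the first readings over Rex1 and 0.29, 0.30 and 0.19 in the second, in the order Bra, Flk1 and Nkx2.5, against medians between 0.00 and 0.01 over all probes.

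Axin2, the beta-catenin target that reports on the pathway, lies on mouse chromosome 11 and was the only gene of the set called over Rex1 in all 3 later populations, as were 0.489% of all probes. Its signal was 3611.5 in Bra against 1100.5 in Rex1, 2258 in Flk1 against 770 in Rex1, and 2378.5 in Nkx2.5 against 909.5 in Rex1, each pair on 1 array. The readings were 1.33 and 1.45 in Bra over Rex1, 1.41 and 1.43 in Flk1 over Rex1, and 1.29 and 1.22 in Nkx2.5 over Rex1. A constant dye effect cancels in the second readings of Bra and Flk1 over Rex1, 1.45 and 1.43. These are not independent of each other, since a single Rex1 array enters both. Such an effect cancels in neither reading of Nkx2.5 over Rex1. The part of the dyes in the Axin2 differences was not tested. The triangles of Axin2 closed to -0.12 through Bra and -0.02 through Flk1.

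In Rex1 cells Axin2 was not well above background on any array. The signals were 0.773, 0.653 and 0.741 of the threshold on the arrays with Bra, Flk1 and Nkx2.5, while each later population was above it on every array of its own. The ratios are therefore given as bounds, with the processing used here. For Axin2 these were at least 2.16-fold in Bra, at least 1.68-fold in Flk1 and at least 1.75-fold in Nkx2.5 over Rex1. A bound is the bright population's mean normalised channel level over the lowest signal that counts as above background in the dim one. Dye bias can shift it, and it is no firm minimum. In the deposited series table the first reading of Axin2 in Bra over Rex1 was 0.986, a smaller fold than its bound. Among the 3647 probes dim in Rex1 on every array, 6.42%, 3.37% and 11.1% were called higher in Bra, Flk1 and Nkx2.5, against 0.524%, 0.369% and 1.54% of the others. Probes dim in Rex1 were therefore called more often than others. Of the set, 3 of 49 probes were dim in Rex1, those of Axin2, Lef1 and Wnt2, or 6.12%, against 12.6% of all probes.

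Between the later populations Axin2 lay level. It read -0.16 and -0.04 in Nkx2.5 over Bra, -0.14 and -0.12 in Nkx2.5 over Flk1 and 0.08 and -0.02 in Flk1 over Bra, all smaller than the error of 1 array. The signals on the first of these arrays were 4958.5 in Nkx2.5 and 5879.5 in Bra, and on the second 3409.5 in Nkx2.5 and 2679.5 in Flk1. The least-squares levels relative to Rex1 were 1.37 in Bra, 1.40 in Flk1 and 1.26 in Nkx2.5. Without background subtraction the first readings over Rex1 were 0.04, -0.05 and -0.04 for Bra, Flk1 and Nkx2.5, and no call of Axin2 was left. The difference from Rex1 thus depends on the background being subtracted. This was not particular to Axin2, since 0, 0 and 2 of all 28845 probes were then called higher in these comparisons.

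Lef1, on mouse chromosome 3, encodes a DNA-binding partner of beta-catenin and is also a target of the pathway. Its signal was 2707.5 in Bra against 854.5 in Rex1, with readings of 1.01 and 1.23. Rex1 was below the threshold on 3 of 3 arrays, and the bound with the processing used here was at least 1.85-fold. The first reading only just passed, and the call was lost under other processing, as well as where both populations had to be above background. The first reading was 0.993 with the scanner software's own background subtraction, 0.954 with median centring, 0.935 in the deposited series table, where the second was 0.721, and 0.245 without background subtraction, where the second was 0.344. On the Flk1 array it was 1224 in Flk1 against 1081.5 in Rex1, a reading of -0.02 with a second of 1.01. On the Nkx2.5 array it was 966 in Nkx2.5 against 386 in Rex1, with 0.53 and -0.10.

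The Lef1 readings for Flk1 and Nkx2.5 thus disagreed in sign, and only Bra was above Rex1 in both readings. In Nkx2.5 over Bra Lef1 read -0.71 and -0.48, from signals of 4073.5 in Nkx2.5 and 6471 in Bra, and in Flk1 over Bra -1.03 and -0.22. The highest of the 4 levels was thus in Bra in all of these readings, and neither difference was called. Tcf7, a factor related to Lef1, was well above background in all 10 channels. It read 0.13 and 0.22 in Bra over Rex1, -0.18 and -0.48 in Nkx2.5 over Rex1, -0.41 and -0.31 in Nkx2.5 over Bra and -0.67 and -0.16 in Nkx2.5 over Flk1. Its lowest level was in Nkx2.5 in these readings, with a least-squares level of -0.33 relative to Rex1 against 0.10 in Bra and 0.16 in Flk1.

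**Figure D4:**
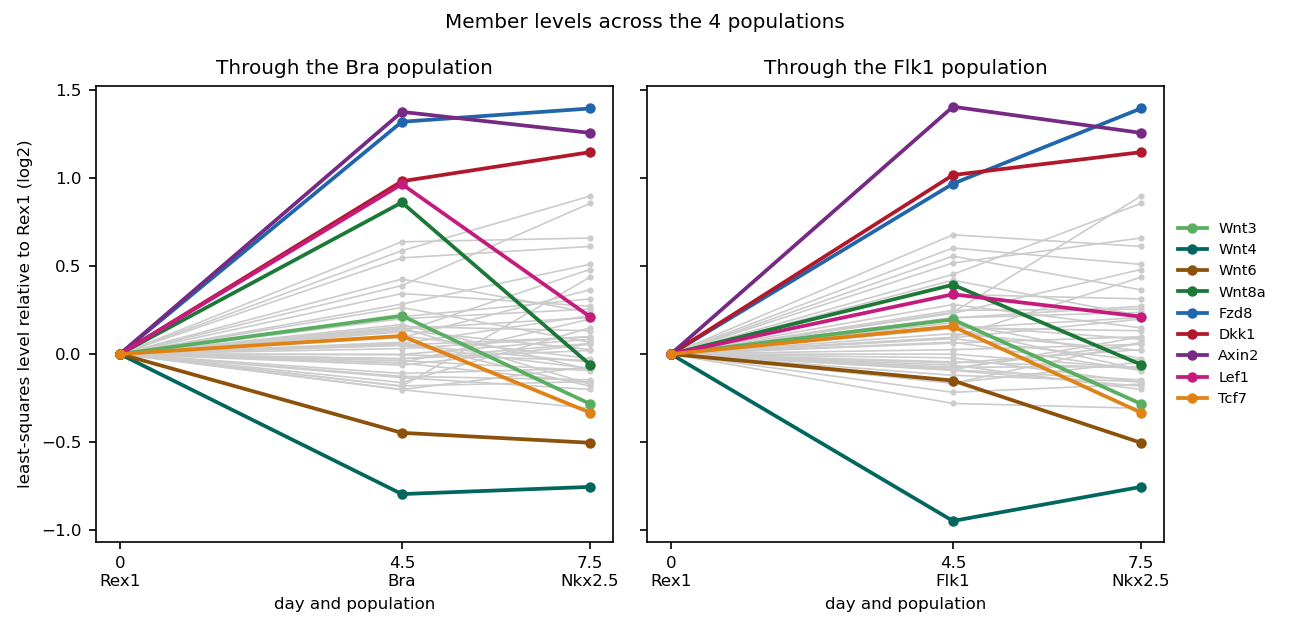
Least-squares level of each of the 49 probes relative to Rex1 (log2, y axis) by day and population (x axis), through Bra in the left panel and through Flk1 in the right, with 9 genes in colour and the other probes in grey. Axin2, Dkk1 and Fzd8 stay between 0.97 and 1.40 at both later days, whereas Lef1 and Wnt8a are at 0.96 and 0.86 in Bra and at 0.21 and -0.06 in Nkx2.5.

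The comparisons between later populations gave no call in the set. In Nkx2.5 over Bra 0.319% of all probes were higher and 0.0728% lower, in Nkx2.5 over Flk1 0.34% and 0.101%, and in Flk1 over Bra 0.0173% and 0.00347%. At these shares a set of 49 probes would hold less than 1 call. In Flk1 over Bra the largest differences by the smaller reading were Fzd4 at 0.43 and 0.46 and Wnt3a at -0.44 and -0.29, and the median of the set was 0.01 in both readings. Over all 6 comparisons 4 of 49 probes were called at least once, or 8.16%, against 3.93% of all probes.

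Other genes of the pathway were taken from a list of 55, of which 48 were on the array with 64 probes. In Bra over Rex1 4 probes were higher, or 6.25%, those of Sp5, Rspo3, Cer1 and Wls, against 1.27% of all probes. In Flk1 over Rex1 1 was higher, that of Sp5, or 1.56%, against 0.749% of all probes. In Nkx2.5 over Rex1 3 were higher, those of Sp5, Dact1 and Wls, or 4.69%, against 2.75% of all probes. None was lower over Rex1, and 1 probe, that of Sp5, was lower in Nkx2.5 over Bra, as were 0.0728% of all probes. The medians of the list over Rex1 lay between 0.02 and 0.10.

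Sp5, a transcription factor gene activated by Wnt signalling, read 2.73 and 2.44 in Bra over Rex1, 2.81 and 1.62 in Flk1 over Rex1 and 1.37 and 2.11 in Nkx2.5 over Rex1. It was lower in Nkx2.5 over Bra, at -1.07 and -1.35, where Axin2 read -0.16 and -0.04. In Nkx2.5 over Flk1 Sp5 read -0.25 and -1.44, and in Flk1 over Bra 0.09 and -0.82, which differ in sign. Neither was called, and the place of Flk1 depended on which arrays were used. Sp5 was dim in Rex1, with bounds of at least 2.31-fold in Flk1 and at least 1.66-fold in Nkx2.5. In Bra the bound of at least 6.11-fold exceeded the fold of 5.41 in the second reading, so it is no firm minimum.

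Rspo3, which encodes an R-spondin that strengthens Wnt signals at the receptor, read 2.35 and 1.31 in Bra over Rex1 and -0.64 and -1.68 in Nkx2.5 over Bra, and was dim in Rex1. Its bound in Bra of at least 4.14-fold likewise exceeded the fold of 2.47 in the second reading. Rspo1, another R-spondin gene, read 2.20 and 0.73 in Bra over Rex1 and 1.96 and 0.52 in Flk1 over Rex1 and was not called. Cer1, whose product binds Nodal and BMP ligands, read 1.21 in both readings of Bra over Rex1. In both readings of Nkx2.5 over Bra it read -0.97, just short of a call.

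Wls, whose product carries Wnts to the cell surface, read 1.20 and 1.12 in Bra over Rex1 and 1.42 and 1.08 in Nkx2.5 over Rex1. In Flk1 over Rex1 it read 0.26 and 1.01. Dact1, which encodes a Dishevelled-binding regulator, read 1.34 and 1.70 in Nkx2.5 over Rex1 and 1.03 and 0.65 in Nkx2.5 over Flk1. At the lower end, one probe of Myc read -0.93 and -0.86 in Nkx2.5 over Rex1 and one of Ccnd1 -0.69 and -0.65, neither called. The other Ccnd1 probe read 0.12 and 0.02, and the other Myc probes were at -0.40 and -0.22 in the first reading. Vangl1, a gene of the planar polarity branch, read -0.68 and -0.70 in Bra over Rex1.

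**Figure D5:**
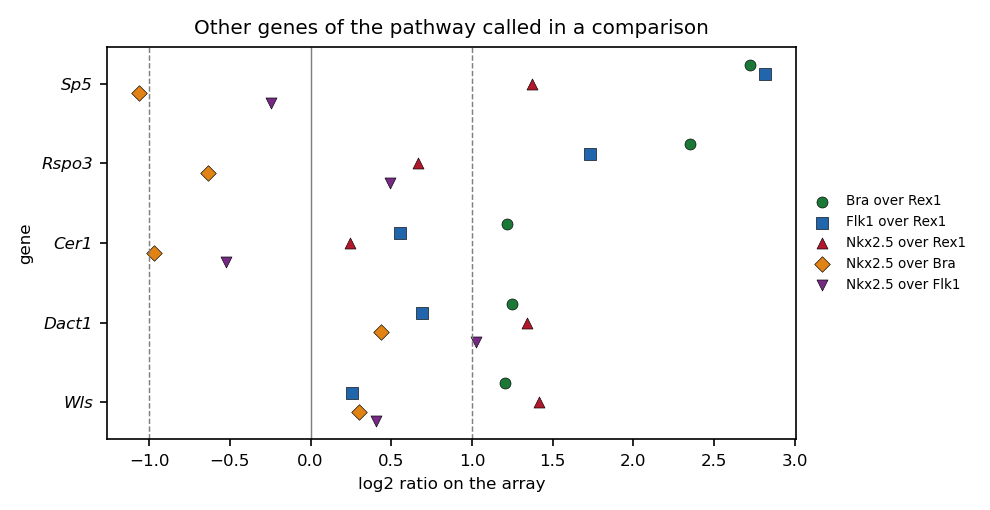
Log2 ratio on each of the 5 arrays (x axis, dashed lines at -1 and 1) of the 5 other pathway genes called in some comparison (rows), with a marker shape and colour for each array. Sp5 lies beyond 2.7 on the arrays of Bra and Flk1 with Rex1 and at -1.07 in Nkx2.5 over Bra, Cer1 and Rspo3 are highest in Bra over Rex1, and Wls and Dact1 are above 1 in both Bra over Rex1 and Nkx2.5 over Rex1.

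Genes of other cell types moved in the same comparisons. Of 5 endoderm genes 3 were higher in Nkx2.5 over Rex1, namely Afp, Ttr and Sox17, with first readings of the 5 between 0.25 and 2.60. Of the same 5, 1 was higher in Bra over Rex1, Sox17, and 0 in Flk1 over Rex1. Of 8 cardiac genes 5 were higher in Nkx2.5 over Rex1, of 4 neural and 5 fibroblast genes 0 were called, and of 8 genes of undifferentiated cells 3 were lower in each later population. Of 8 genes of Flk1 mesoderm and endothelium 4 were higher in Flk1 over Rex1, namely Etv2, Lmo2, Sox18 and Egfl7. In Bra and in Nkx2.5 over Rex1 0 of these 8 were higher, and Sox18 was also higher in Flk1 over Bra. Of 6 primitive streak genes 1, Fgf8, was higher in Bra and in Flk1 than in Rex1. Of all probes 1.27%, 0.749% and 2.75% were higher in Bra, Flk1 and Nkx2.5 over Rex1. The part of these cell types in the levels of Axin2, Dkk1, Fzd8 and Lef1 was not tested. In RNA from a whole population, more cells expressing a gene and more RNA per cell cannot be told apart.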

How the data were processed

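Pairs of RNA samples from 4 mouse cell populations, dye-labelled after amplification of total RNA per the labels' protocols, were measured on 5 oligonucleotide arrays. Each ratio is Cy5 over Cy3, with the dyes read off the labels. The scanner software is not given in the sources used. In the deposited scanner files, per the file headers, each spot has an intensity, a median signal, a background and a ratio. Tested on the files, that background is constant within each of 48 blocks, the median signal already has it subtracted, and the deposited ratio divides one channel's intensity by the other's. The deposited series table holds log2 values, which differ from the log2 of those ratios by a constant per array to within 1e-06. Its scale and direction are thus known. Its column medians were -0.0846 (Bra and Rex1), -0.0599 (Flk1 and Rex1), -0.0578 (Nkx2.5 and Rex1), -0.00732 (Nkx2.5 and Bra) and -0.0728 (Nkx2.5 and Flk1).

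The background was added back to the median signal, and limma 3.58.1 in R 4.3.3 then applied normexp (offset 50) and loess within each array, giving control spots weight 0. Python 3.11.15 made the tables. Without control spots 28845 probes were left. The array of Nkx2.5 and Rex1 enters the second readings of both Bra and Flk1 over Rex1. The second reading of Nkx2.5 over Rex1 averages the routes through Bra and Flk1. Bounds for dim probes used channel levels after loess and Aquantile. All 49 probe names of the set equalled a symbol in a RefSeq table of assembly GRCm38.p6, 37 matched by accession and 12 by symbol. Of all probes, accessions named 8056, symbols 5226 and synonyms 5081, and 10482 had no match.

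Both readings are given for Axin2, for each member called in a comparison, and for the 3 highest and 3 lowest members of each comparison by the smaller reading. Other members are named within their role. Of the other pathway genes, those called or with the largest readings are named. Lrp6, Wnt2b and other genes whose readings disagreed were singled out after their values were seen. The members and gene lists were chosen with earlier results of these data known. Other background corrections, normalisations, thresholds and filters were tried. The result of a marker list of another cell type is not reported here.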

Additional observations from a re-analysis of the deposited data

How the results depend on the processing

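No paired analysis was possible because each pair of populations was hybridised on 1 array. The counts of higher probes depended on the background and on the threshold. Without background subtraction 0, 0 and 2 of all 28845 probes were higher in Bra, Flk1 and Nkx2.5 over Rex1, in place of 366, 216 and 792. The loss was thus not particular to the set. Of the set 0 probes were then higher in each of these 3 comparisons, in place of 2 in Bra, 1 in Flk1 and 3 in Nkx2.5. The 12 readings behind those calls, between 1.01 and 1.63, then ran between -0.204 and 0.344, and 4 changed sign: Axin2 read -0.054 in the first reading of Flk1 over Rex1 and -0.0438 and -0.204 in Nkx2.5 over Rex1, and Dkk1 read -0.0088 in the second reading of Nkx2.5 over Rex1. The cause was not tested. The scanner software's own background-subtracted signal left 1 probe of the set in Bra and 1 in Nkx2.5, both Axin2, and 250 and 499 of all probes. The deposited series table left 0 in Bra and 0 in Nkx2.5, with readings between 0.721 and 1.24. Of all probes it left 134 in Bra and 375 in Nkx2.5. Median centring left 1 in Bra, Axin2, and 353 of all probes. Requiring both populations above background left 0 in Bra and 0 in Flk1, since Axin2 and Lef1 are dim in Rex1. Of all probes it left 132 in Bra and 93 in Flk1. The least-squares estimate gave 2 in Flk1, Axin2 and Dkk1, and 652 of all probes. At 1.5-fold the counts were 5 higher in Bra, 4 higher in Flk1 and 1 lower in Nkx2.5 over Bra, Wnt8a. The counts of all probes were 1036, 803 and 138 in the same order. Every other count of the set, among them 0 lower over Rex1 under each setting, stayed within 1.5 times, but the genes could change. The least-squares estimate gave Axin2 and Fzd8 in Bra, without Lef1. Requiring both populations above background left Dkk1 and Fzd8 in Nkx2.5, without Axin2. The demand that the brighter population be above background on every array of it was added after seeing the data and moved no count of the set. Signal over background limits Axin2, Lef1 and Wnt2 most.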
